A study of Arabidopsis thaliana with 6 samples.

Results

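TRY (TRIPTYCHON, AT5G53200), GIS (GLABROUS INFLORESCENCE STEMS, AT3G58070) and AN (ANGUSTIFOLIA, AT1G01510) are 3 Arabidopsis genes of leaf hair patterning and shape, and their transcript levels were followed here in isolated trichomes. They were chosen by locus: a probe set was taken if the platform annotation mapped it to exactly 1 of the 3 genes. This gave 3 probe sets, 1 per gene (248246_at for TRY, 251586_at for GIS and 259438_at for AN), out of 13286 genes that a probe set of the array names alone. A further 0 probe sets listed a member beside other genes. Each gene is thus seen through 1 probe set, labelled from the 3′ end of the transcript, and transcript isoforms were not separated.

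RNA came from trichomes pulled with forceps from rosette leaves 5 and 6 of plants aged 3 weeks, grown on sucrose plates in continuous light. Wild-type plants (genotype label wild-type) and gtl1-1 mutant plants gave 3 biological replicates each, 6 Affymetrix arrays in all, and no treatment was applied to either genotype. GTL1, a transcription factor of the trihelix family, is known to limit how large a trichome grows and how far its nucleus copies its DNA. The accession of the wild type, the nature of the gtl1-1 allele and the number of plants behind a replicate are not given in the sources used here. The deposited values are log2 expression estimates made with GCRMA, which ran from 2.14 to 15.51, and the median of an array was 5.48 to 5.57. Precision is limited by the number of arrays, as there is no read depth.

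Each Arabidopsis trichome is a single large cell of the leaf epidermis. Its fate is set by an activating complex of MYB, bHLH and WD40 proteins, which also switches on small MYB repressors that move into neighbouring cells and keep them from becoming trichomes. The selected cell then stops dividing, copies its DNA and grows out into branches whose number and shape depend on microtubules. TRY is one of the small MYB repressors, and plants without it carry trichomes in clusters. GIS is a zinc finger protein that promotes trichome formation downstream of gibberellin, mainly on organs of the inflorescence. AN is a protein related to animal CtBP/BARS, and plants without it form trichomes with fewer branches.

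The labels name trichomes as the tissue. Of 7 trichome markers considered, 2 were the sole gene of a probe set. SIM, which blocks the division of trichome cells, lay between 11.43 and 12.29 on the log2 scale over the 6 arrays, and BLT, needed for branching, lay between 6.29 and 6.97. The other 5 markers were not analysed here. With no sample of another tissue to compare, the levels of SIM and BLT do not test the label. Genes used as markers of other leaf cells were read too, though the arrays do not show in which cells they were expressed. The 5 mesophyll markers with a probe set (RCA, LHCB4.1, LHCB4.2, SBPASE and PRK) had a mean log2 level of 11.94 to 12.65 in the wild-type arrays and 11.89 to 12.16 in the mutant arrays. Of these 5, LHCB4.1 and LHCB4.2 were lower in all 3 mutant arrays than in any wild-type array. Their log2 changes of -0.39 and -0.99 were not called by limma (adjusted p = 0.295 and 0.171). The arrays overlapped for the other 3, RCA, SBPASE and PRK, with changes of 0.01, 0.03 and 0.05. Over all tested probe sets, 10.1% were lower in all mutant arrays. The mean log2 level of the stomatal lineage factors SPCH, MUTE and FMA together was 4.61 to 5.41 in the wild-type arrays and 4.55 to 5.01 in the mutant arrays. MUTE alone averaged 3.45 in wild type and 3.35 in the mutant, and did not pass the filter on dim probe sets. The joint mean hides opposite signs: the log2 change was -0.55 for SPCH and 0.21 for FMA (FAMA). Neither was called (limma adjusted p = 0.397 and 0.796). The phloem sugar transporter SWEET11 lay between 3.86 and 5.35 in wild type and 4.88 and 5.43 in the mutant. Their part in the results below was not tested. The annotation used here names no probe set for GTL1, so the mutant label was not checked on the mutated gene.

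TRY, the repressor, had the largest difference between genotype means of the 3 genes, and its mutant arrays also spread the widest. Wild-type replicates 1, 2 and 3 read 7.44, 7.19 and 8.20 on the log2 scale, and gtl1-1 mutant replicates 1, 2 and 3 read 7.73, 5.78 and 6.34. Mutant replicates 2 and 3 lay below all the wild-type arrays, while mutant replicate 1 lay inside the wild-type range, so the genotypes overlapped. The means were 7.61 ± 0.53 in wild type and 6.62 ± 1.00 in the mutant (SD, n = 3 each). The change, mutant minus wild type, was -0.99 ± 0.50 on the log2 scale (SE), or 1.98-fold lower in the mutant. Its 95% interval ran from -2.17 to 0.19, that is, from 4.5-fold lower to 1.14-fold higher. TRY did not pass the test over all probe sets (limma adjusted p = 0.415, unadjusted p = 0.0888). An exact two-sided permutation of the 6 arrays gave p = 0.3, where this design cannot go below 0.1.

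**Figure D1:**
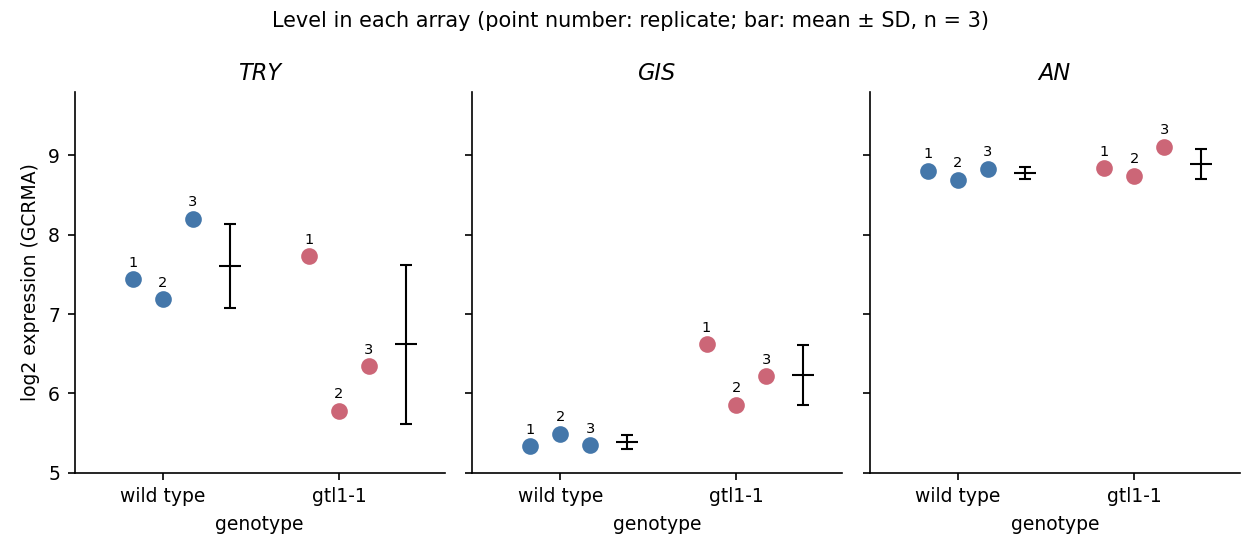
Log2 expression (y axis) of TRY, GIS and AN in each array of wild-type and gtl1-1 mutant trichomes (x axis). Points are arrays with their replicate number, and the black bars show mean ± SD of 3 arrays. GIS is higher in all 3 mutant arrays than in any wild-type array, TRY is lower in 2 of 3, and the AN arrays overlap.

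The size of the TRY difference rests on single arrays. Without mutant replicate 1 the change was -1.54 ± 0.33 (log2, SE), and its unadjusted limma p was 0.00323, but the adjusted p of 0.14 still missed the threshold of 0.05. Without mutant replicate 2 the change was -0.57 ± 0.48 (limma adjusted p = 0.671), which is 1.73 times smaller than with all arrays. The standard deviation of TRY within genotypes, 0.80, exceeded that of 98.5% of the 2456 tested probe sets whose mean level was within 0.5 log2 units of its own, where the median was 0.22. Few transcripts of comparable brightness were thus as variable between arrays of a genotype. Taken by replicate number, the mutant stood at 0.29 relative to wild type in replicate 1, at -1.40 in replicate 2 and at -1.86 in replicate 3, so 2 of the 3 pairs were negative.

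GIS, the activator among the members, was the gene whose genotypes separated. Wild-type replicates 1, 2 and 3 read 5.34, 5.49 and 5.35, and gtl1-1 mutant replicates 1, 2 and 3 read 6.62, 5.86 and 6.22. All 3 mutant arrays lay above all 3 wild-type arrays, and the gap between the nearest arrays of the genotypes, 0.37, was wider than the whole wild-type range of 0.16. The means were 5.39 ± 0.09 and 6.23 ± 0.38 (SD, n = 3 each), a change of 0.84 ± 0.20 (log2, SE) or 1.79-fold, with a 95% interval from 1.29-fold to 2.48-fold. This did not pass the test over all probe sets (limma adjusted p = 0.14), while the unadjusted limma p was 0.00394. The exact two-sided permutation p was 0.1, the smallest that 3 arrays against 3 allow. A separation of this kind is common on these arrays: the genotypes did not overlap at 20.9% of the tested probe sets, and 10.8% were higher in all mutant arrays.

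GIS ranked at place 384 by p among the 13682 tested probe sets, whereas the calls ended at the 126th, or 0.921% of those tested. The largest unadjusted p among the called probe sets was 0.000452. Of the 126 called probe sets, 6 had a smaller change than GIS, and of all tested probe sets 3.81% had a larger one. The spread of GIS within genotypes, 0.28, was close to the median of 0.25 for the 1814 tested probe sets of similar level. It was unequal between genotypes, with a range of 0.16 in wild type and 0.76 in the mutant. With each array left out in turn, the GIS change lay between 0.65 and 1.03, with the lower value without mutant replicate 1. By replicate number the differences were 1.28, 0.37 and 0.87. Because the genotypes did not overlap, the sign could not change in either reading, so only the sizes add information.

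AN, which shapes branching, was the steadiest of the 3. Wild-type replicates 1, 2 and 3 read 8.80, 8.69 and 8.84, and the mutant replicates read 8.84, 8.74 and 9.11. The genotypes overlapped, and mutant replicate 3 was the one array above the rest by more than the wild-type range of 0.14. The means were 8.78 ± 0.08 and 8.90 ± 0.19 (SD, n = 3 each), a change of 0.12 ± 0.14 (log2, SE). AN was not called (limma adjusted p = 0.726; exact permutation p = 0.4). The 95% interval of the change, from 1.16-fold lower to 1.37-fold higher in the mutant, bounds what these arrays allow. Of the tested probe sets, 65.8% changed by more than AN. Its standard deviation within genotypes was 0.14, below the median of 0.19 for the 2005 tested probe sets of similar level. The change was 0.01 without mutant replicate 3 and 0.20 without mutant replicate 2. In bulk RNA from collected trichomes, fewer cells that carry a transcript and less of it per cell cannot be told apart, which holds for all 3 genes.

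**Figure D2:**
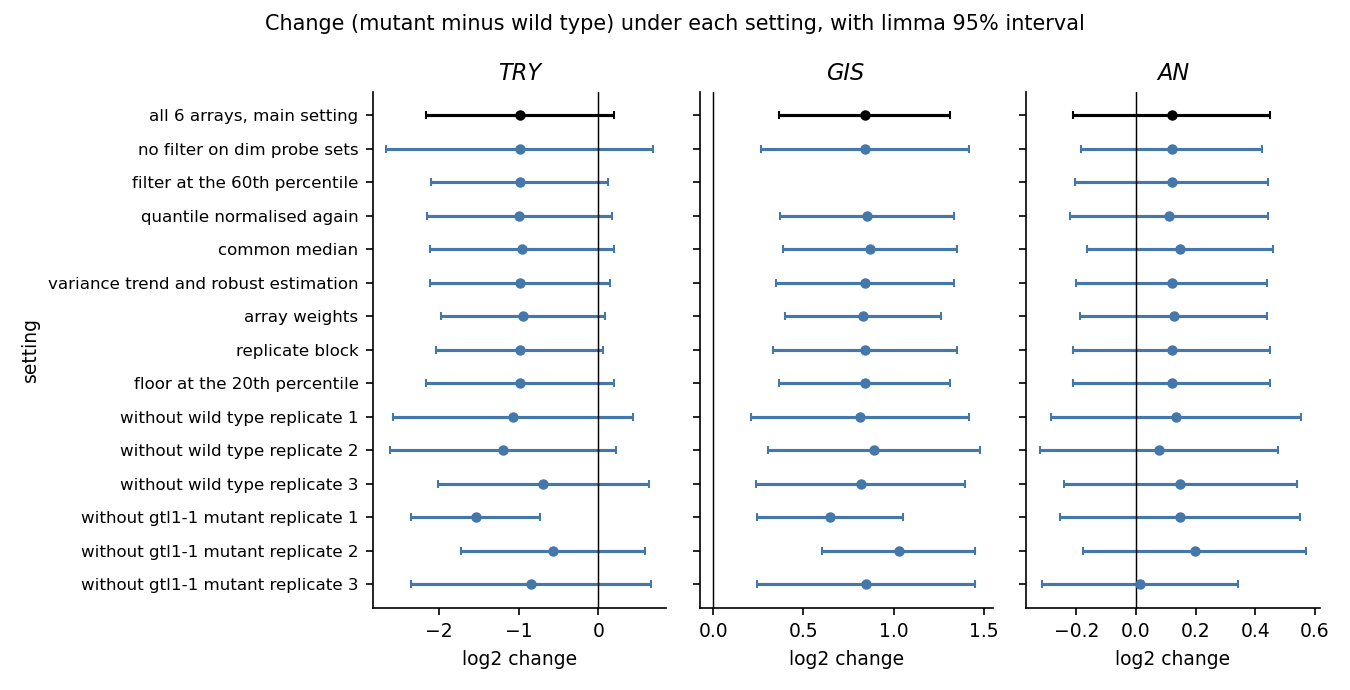
Log2 change (x axis, mutant minus wild type) of TRY, GIS and AN under each setting of the fit (y axis), as points with limma 95% intervals; the x ranges differ between panels, and GIS has no point under the filter at the 60th percentile. TRY runs from -1.54 to -0.57, GIS from 0.65 to 1.03 and AN from 0.01 to 0.20, the GIS intervals lie above 0 in each setting shown, the AN intervals include 0, and that of TRY leaves out 0 only without mutant replicate 1.

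The rank of each probe set within its array places these levels on the whole array, though a rank also reflects how well the probes of a set bind, so ranks of different genes were not set against each other. TRY stood at percentiles 67.6, 65.3 and 76.7 in wild-type replicates 1, 2 and 3, and at 71.4, 52.1 and 56.4 in the mutant replicates. In mean rank TRY was 9.92 percentile points lower in the mutant, with a standard deviation of 6.03 points in wild type and 10.1 points in the mutant. It thus ranged from just above the middle of the array to well above it.

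GIS stood at percentiles 48.8, 49.9 and 48.5 in the wild-type replicates, close to the middle of the array. In the mutant replicates it stood at 59.5, 52.7 and 55.2, a mean of 6.74 points higher. All GIS values were above the 40th percentile of their array used as the filter, by at least 1.77 log2 units, but 0 of 6 reached the 60th. AN stood at percentiles 82.5, 81.9 and 83.1 in wild type and 83.0, 82.0 and 85.2 in the mutant, a mean of 0.95 points apart. The 3 genes lay at least 3.2 log2 units above the lowest value of the data. Whether the background correction bounded these changes was not tested.

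**Figure D3:**
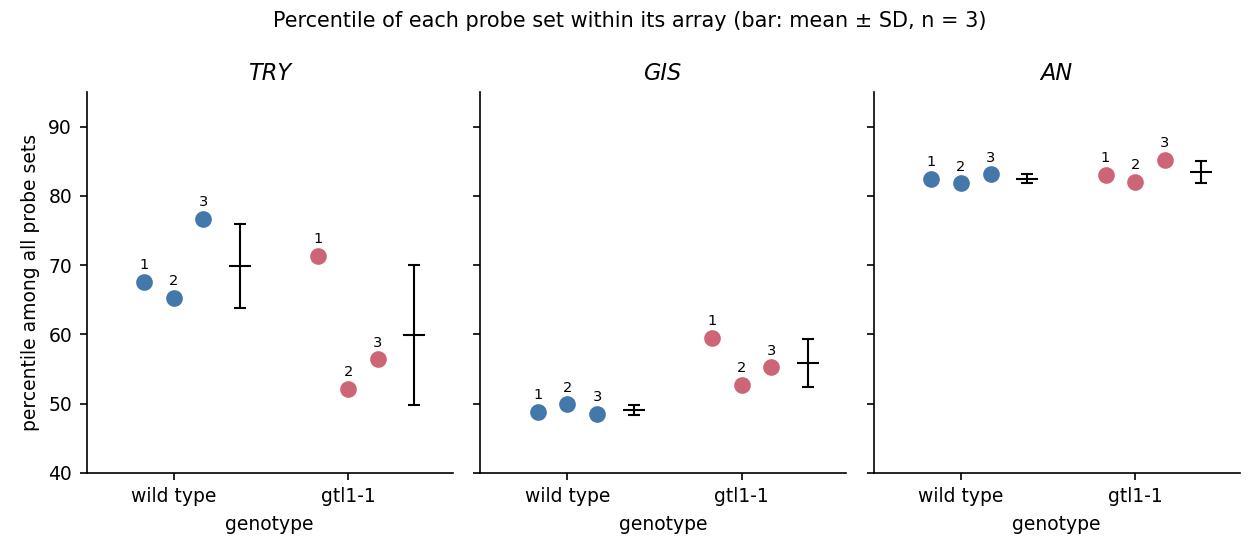
Percentile (y axis) of the TRY, GIS and AN probe sets among all 22746 probe sets of each array in wild-type and gtl1-1 mutant trichomes (x axis). Points are arrays with their replicate number, and black bars show mean ± SD of 3 arrays. TRY covers percentiles 52.1 to 76.7, GIS 48.5 to 59.5 and AN 81.9 to 85.2.

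Against the array as a whole, the TRY change was among the larger ones and the AN change was near the centre. The median change of all tested probe sets was -0.01 and the median size was 0.19 (log2). A change larger than that of TRY was seen at 2.51% of tested probe sets, yet 21.4% had a smaller p. An unadjusted limma p under 0.05 was reached by 14.9% of tested probe sets and, of the 3 genes, by GIS alone. Limma at an adjusted p under 0.05 called 0 of the 3 genes, at a share over all tested probe sets of 0.921%.

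**Figure D4:**
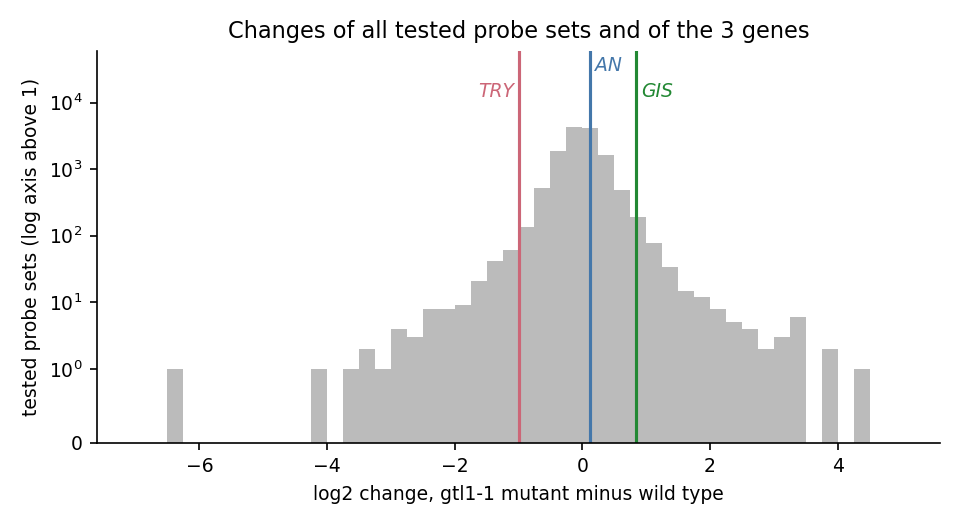
Number of tested probe sets (y axis, log scale above 1) by log2 change, mutant minus wild type (x axis, bins of 0.25), with vertical lines at TRY, AN and GIS. AN at 0.12 lies in the centre, and TRY at -0.99 and GIS at 0.84 lie on opposite flanks.

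The other genes of the trichome pathway were read from a list of 42 loci that covers activators of trichome fate, the small MYB repressors, GIS-type zinc fingers, branching genes and genes that time trichome formation. Of these, 8 had a probe set that names them alone and 7 passed the filter. Limma called 0 of the 7, with adjusted p between 0.306 and 0.948, and 1 had an unadjusted p under 0.05. Of the 7 changes 4 were positive and 3 negative, with a median of 0.03 against -0.01 over all tested probe sets. The other 34 loci, which include all small MYB repressors of the list beside TRY, were not analysed here.

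Among the branching genes read beside AN, POR, a cofactor of tubulin folding, stood at 6.20, 5.89 and 5.96 in wild type and 6.54, 6.25 and 6.34 in the mutant. All 3 mutant arrays of POR lay above the wild-type arrays, by 0.05 log2 units at the nearest, as they did at 10.8% of all tested probe sets. Its change was 0.36 ± 0.15 (log2, SE; limma adjusted p = 0.306, unadjusted p = 0.0403). SPK1, an activator of small GTPases that organise the cytoskeleton, had a change of 0.03 ± 0.15 (limma adjusted p = 0.948). BLT, with a change of -0.10 ± 0.20 (limma adjusted p = 0.855), read 6.97, 6.29 and 6.71 in mutant replicates 1, 2 and 3. Its mutant arrays, and those of POR, fell in the same order as those of TRY and GIS, highest in replicate 1 and lowest in replicate 2. Other listed genes did not share this order, and its share over all tested probe sets was not counted. Among the mutant arrays, AT2G46600, ATMYC1 and SPY were lowest in replicate 1, and AN and SPK1 were highest in replicate 3. SIM had a change of 0.12 ± 0.23 (limma adjusted p = 0.849). Its highest array, at 12.29, was mutant replicate 1, and its lowest, at 11.43, was mutant replicate 3. AT2G46600, for which the reference gives no symbol, stood at -0.43 ± 0.26 (limma adjusted p = 0.48).

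Beside TRY and GIS, ATMYC1, a bHLH protein of trichome initiation, had a change of -0.15 ± 0.23 (log2, SE; limma adjusted p = 0.805). SPY, a repressor of gibberellin signalling, stood at 0.26 ± 0.18 (limma adjusted p = 0.531). AT1G68360, the other locus of the GIS-type list with a probe set, read 2.21 in every array and did not pass the filter. GIS was therefore the one tested gene of that list, and TRY the one tested gene of the small MYB list.

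**Figure D5:**
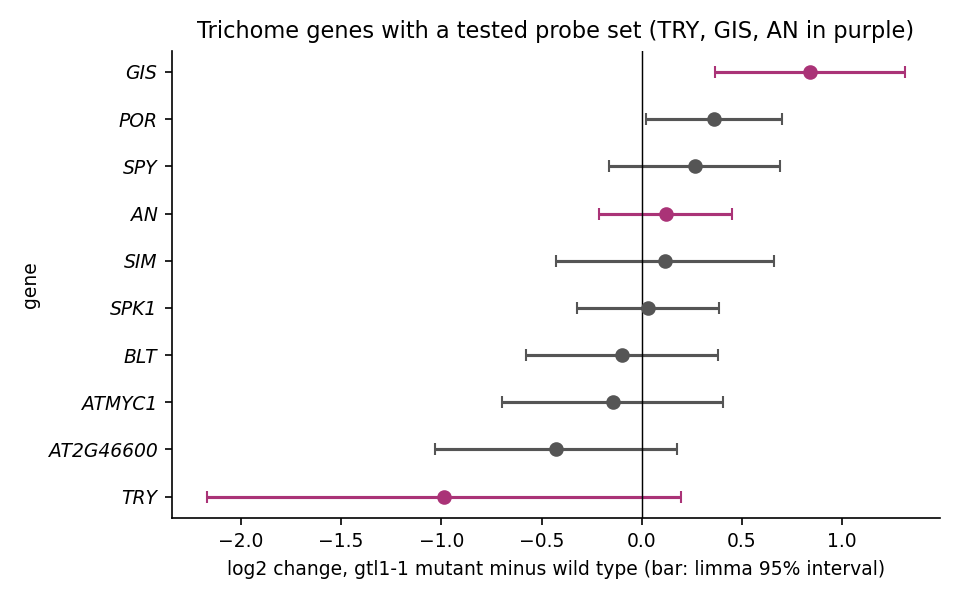
Log2 change (x axis, mutant minus wild type) of the 10 trichome genes with a tested probe set (y axis), as points with limma 95% intervals, and TRY, GIS and AN in purple. The intervals of GIS and POR lie above 0 and the other 8 include 0; none was called over all probe sets.

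The profiles most like each gene were sought over the 6 arrays among 7467 tested probe sets that name 1 gene. For TRY the highest Pearson correlations were those of ATG8C, an autophagy protein, at 0.993, AT4G03180 at 0.992 and AT2G30740 at 0.992. ATG8C, for example, read 10.49, 10.38 and 10.64 in wild type and 10.55, 9.85 and 10.07 in the mutant. It had the same dip in mutant replicates 2 and 3 at a smaller size, which follows from its choice by correlation with TRY. For GIS they were those of AT5G65610 at 0.991, AT5G10850 at 0.976 and AT5G22310 at 0.97. AT5G65610 read 4.75, 5.06 and 5.02 in wild type and between 5.61 and 6.77 in the mutant, a change of 1.18 (limma adjusted p = 0.144). For AN they were those of AT1G80000 and AT1G24610, both at 0.98, and of AT2G02870 at 0.978.

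These are descriptions over 6 points that share arrays and genotypes. A correlation above 0.95 was reached by 38 of these probe sets with TRY (0.509%), 19 with GIS (0.254%) and 18 with AN (0.241%). With the genotype means removed, the profiles nearest to TRY were AT4G31150, AT2G13290 and AT5G53650 (r = 0.999, 0.998 and 0.996). Those nearest to GIS were then AT5G02830, AT3G62110 and AT1G15260 (r = 0.994, 0.993 and 0.992), and those nearest to AN were AT5G38840, AT5G07900 and AT3G61950 (r = 0.996, 0.996 and 0.994). For each member these 3 names differ from the 3 found with the genotype means kept. With the means removed, 102 probe sets were above 0.95 with TRY (1.37%), 41 with GIS (0.549%) and 55 with AN (0.737%). Removing the means leaves fewer free values per profile, so the higher r values do not show a closer likeness.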

How the data were processed

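Per the submitters' processing notes, the authors used GCRMA (no version is stated) to make the deposited log2 values, whose scale was inferred from their range. GCRMA summarises the probes of a set after quantile normalisation and a background correction that depends on probe sequence. After removal of 64 control probe sets the table was used as deposited. Gene names came from the platform annotation, updated through the RefSeq gene table of TAIR10.1. A probe set was tested if it exceeded the 40th percentile of its array in at least 3 of 6 arrays, which left 13682. Genotypes were compared with limma 3.58.1 (lmFit, eBayes, two-sided) in R 4.3.3, with Benjamini-Hochberg adjustment over all tested probe sets and a threshold of 0.05. The fit was tested on simulated data. Genes named are the 3 members, listed trichome genes, cell type markers and the 3 most correlated profiles per member. The members and lists were chosen with earlier results of these data known. What a shared replicate number stands for is not stated in the labels. Deviations from the genotype means correlated at 0.127, 0.275 and 0.118 for same-numbered arrays, and at -0.212 to 0.087 for differently numbered ones. Deviations cancel within a genotype, so positive values for some pairs force negative ones for others, and this contrast is partly built in. Wild-type replicate 3 had 0.087 with mutant replicate 1, near its 0.118 with mutant replicate 3. As each same-numbered value was over 0.1, a fit with the number as a block was treated as a paired fit. Only the data bear on that pairing, and these values do not settle it.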

Additional observations from a re-analysis of the deposited data

How the results depend on the processing

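TRY kept its negative sign, and GIS and AN their positive signs, under every alternative run, and none was called in any: 14 alternatives for TRY and AN, and 13 for GIS, which the filter at the 60th percentile removes. The changed filters, the variance trend, the replicate block and the floor left the estimated changes as they were, so the kept signs there add nothing. Leaving 1 array out could not turn the sign of GIS either, as its genotypes did not overlap. Apart from left-out arrays, the change lay between -0.99 and -0.95 for TRY, 0.83 and 0.87 for GIS, and 0.11 and 0.15 for AN. With 1 array left out it lay between -1.54 and -0.57 for TRY, 0.65 and 1.03 for GIS, and 0.01 and 0.20 for AN. The limma adjusted p ranged from 0.14 to 0.785 for TRY, from 0.0924 (array weights) to 0.399 (no filter) for GIS, and from 0.644 to 0.981 for AN. The replicate block (pairing by number) gave TRY -0.99, GIS 0.84 and AN 0.12 with adjusted p of 0.327, 0.166 and 0.682, and changed no call of these genes. The count of called probe sets over the array was 126, but 68 with the replicate block, 8 with no filter, and 31 to 81 with 1 array left out. The other alternatives gave 113 to 178. The cause of these differences was not tested. That TRY and GIS were not called does not show that they did not differ.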

Other observations

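In the gene order of TAIR10.1, SPCH, the bHLH factor that starts the stomatal lineage, is the protein-coding gene next to TRY. It read 5.83, 6.78 and 5.87 in wild-type replicates 1, 2 and 3 and 5.38, 5.64 and 5.78 in the mutant replicates, a change of -0.55 ± 0.27 on the log2 scale (SE; limma adjusted p = 0.397). All 3 mutant arrays lay below the wild-type arrays, by 0.04 log2 units at the nearest, as they did at 10.1% of all tested probe sets. The highest SPCH array was wild-type replicate 2, in which TRY was at its lowest within wild type. The means of both genes were lower in the mutant, and neither was called. SWEET3, on the other side of TRY, read 2.14, the floor of the data, in every array. AT1G01500, next to AN, had a change of 0.11 ± 0.16 (log2, SE; limma adjusted p = 0.776). The neighbours of GIS with a probe set, AT3G58060 and AT3G58090, did not pass the filter, and ASG4, on the other side of AN, was not analysed here. These neighbours were added after the values of the 3 genes were seen.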
